A study of Mus musculus with 42 samples.

Results

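The livers compared here came from 6 male C57B6/J mice given corticosterone and enzalutamide together in the chronic arm (CORT+ENZA, mouse numbers 4, 5, 6, 16, 17 and 18) and 6 male C57B6/J mice given vehicle in the same arm (mouse numbers 10 to 15). They are 12 of the 42 libraries of the study and were chosen by their titles alone. The series asks how glucocorticoid and androgen signalling interact in the liver, and its other groups are 6 chronic mice on corticosterone alone (CORT, numbers 1 to 3 and 25 to 27) and 4 acute groups of 6 mice on vehicle, corticosterone, enzalutamide or both. The labels name no allele or transgene. No age, dose, route or length of treatment stands in the labels. Total RNA of each snap-frozen liver was read as enriched mRNA, and a chronic group on enzalutamide alone was not analysed here, so the chronic combination can be set against vehicle and against corticosterone, but not against enzalutamide of the same duration.

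Corticosterone is the main glucocorticoid of mice and acts through the glucocorticoid receptor (Nr3c1), which raises genes such as Fkbp5, a co-chaperone of steroid receptors, and many genes of glucose and fat metabolism. Enzalutamide is a drug that blocks androgen signalling, and in patients it is also known to induce drug-metabolising enzymes such as CYP3A4. Such induction runs through the nuclear receptors CAR (Nr1i3) and PXR (Nr1i2), which heterodimerise with RXR and raise cytochromes P450 of the Cyp2b, Cyp2c and Cyp3a families, conjugating enzymes and transporters. Mouse liver is also strongly sex-biased, and the male pattern of gene expression is set by the pulses of growth hormone that androgens shape.

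With both drugs, the largest rises were in drug-metabolising enzymes: Cyp2b10, Cyp3a11 and Cyp2c55 rose by 10.04, 4.17 and 4.24 on the log2 scale, and 27 of 29 measured CAR and PXR genes and targets were higher, beside 10.3% of all genes. The female-biased gene Sult1e1, nearly silent on vehicle, was also high, as it was on corticosterone alone. The bile acid 12-alpha-hydroxylase Cyp8b1 and the lipid-binding protein Fabp5 fell by 4.57 and 3.77 (log2). On corticosterone alone 19 of 25 interferon-stimulated and 11 of 25 cholesterol synthesis genes were below vehicle (9.29% of all genes). On the combination 0 and 1 were below and 10 and 9 above vehicle (8.29% and 10.3% of all genes). The cholesterol count above vehicle depended on the mice used, with 10 against vehicle mice 10 to 12 alone and 2 against mice 13 to 15 alone.

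Of 13099 genes tested, 2434 (18.6%) differed between CORT+ENZA and vehicle at an adjusted p under 0.05 (edgeR's quasi-likelihood test with Benjamini-Hochberg adjustment). Of these, 1348 (10.3% of the genes tested) were higher and 1086 (8.29%) lower with the combination. At a change of at least 1 on the log2 scale there were 296 higher (2.26%) and 215 lower (1.64%), and at least 2 there were 85 (0.649%) and 45 (0.344%). The mice of both groups did not overlap at 1058 genes (8.08%), 620 higher (4.73%) and 438 lower (3.34%). Levels are CPM (counts scaled to library size), changes are log2 fold changes ± SE, and means carry the SD of n = 6 mice.

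The 12 libraries held 15381724 to 19300601 gene counts and 18127 to 19740 detected genes. Mice 18 and 11 stood apart from their groups. On the first principal component of the 18 chronic libraries, CORT+ENZA mouse 18 lay at -16.0 against 9.7 to 20.9 for the rest of its group, and vehicle mouse 11 at -10.3 against -41.6 to -34.6. Mouse 18 had 14.1 CPM of the proliferation gene Mki67, 28.8 CPM of the collagen gene Col1a1 and 36.5 CPM of the cell cycle inhibitor Cdkn1a, against medians of 0.706, 3.04 and 3.64 CPM in its group. Mki67 and Col1a1 were picked after their values were seen. Its Cyp2b10 level of 935 CPM was among the 6 treated values of 437 to 1065 CPM. Without mice 18 and 11, 3382 of 13181 genes (25.7%) passed the test, 1696 higher and 1686 lower.

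**Figure D1:**
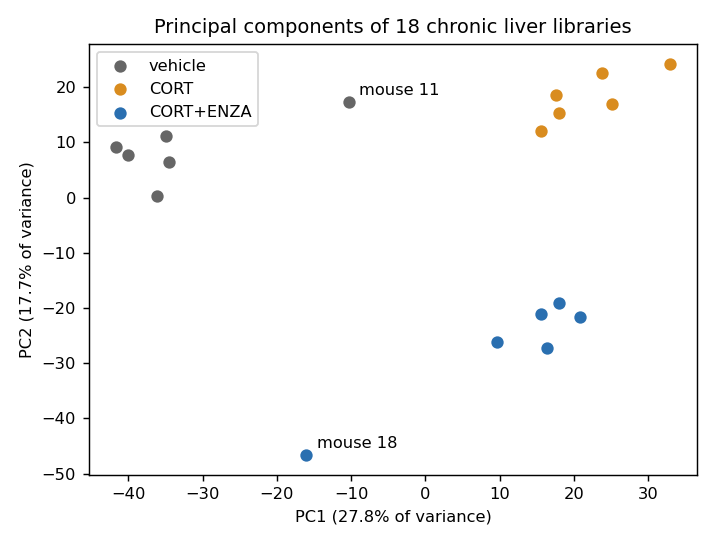
First and second principal component of the log2 CPM of the 18 chronic libraries, 1 point a mouse, coloured by group. CORT+ENZA mouse 18 (-16.0 on the first component) lies between the groups and lowest on the second (-46.7), and vehicle mouse 11 (-10.3) lies apart from the other vehicle mice.

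The vehicle mice were also split by their run of mouse numbers. The clock output gene Dbp, picked after its values were seen, measured 70.3 to 142 CPM in vehicle mice 10 to 12 and 1.76 to 6.34 CPM in mice 13 to 15. Arntl, which encodes the clock activator BMAL1 and was picked in the same way, ran the other way (4.49 to 10.9 and 21.1 to 26.6 CPM). CORT+ENZA mice 4 to 6 and 16 to 18 did not overlap at these genes either. They had 87.8 to 110 and 8.49 to 66.1 CPM of Dbp, and 1.75 to 3.54 and 6.20 to 19.8 CPM of Arntl. The immediate early gene Egr1 measured 57.6 to 110.5 CPM in mice 10 to 12 and 2.45 to 4.58 CPM in mice 13 to 15. Its fall on the combination over all mice (-3.36 ± 0.81, adjusted p = 0.0076) turned against mice 13 to 15 alone (0.31, adjusted p = 0.64). The labels do not say whether a run of numbers marks a cage, a day or an hour of collection. Each gene group below was therefore read again against either run of vehicle mice alone, an alternative chosen after the data were seen. Over all genes, 852 were higher and 680 lower against mice 10 to 12, and 1590 and 1164 against mice 13 to 15. The list counts by run below stand beside these overall numbers.

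Liver markers were present in all 12 libraries, with Alb, the serum albumin gene, at 41387 to 90745 CPM. The summed level of 10 hepatocyte markers was 73334 to 89331 CPM on the combination and 111744 to 145014 CPM on vehicle, with no overlap. Alb made up most of this sum, with a median of 84286 CPM on vehicle and 50391 CPM on the combination. Of the 10, Ttr, Fgb and Alb were lower by test. The medians of Apob (4815 and 5638 CPM), Trf (239 and 306 CPM) and Hnf4a (624 and 629 CPM) did not fall from vehicle to the combination, while those of the other members did. The 10 most abundant genes took 16.3 ± 0.918% of the counts on the combination and 20.4 ± 0.752% on vehicle (n = 6 per group, two-sided exact permutation test, adjusted p = 0.0108 over 5 library measures). Kupffer cell markers summed to 159.8 to 726 CPM and 129 to 417 CPM, with the highest value in mouse 18 and the lowest in mouse 11. T and NK cell markers summed to 1.27 to 8.33 CPM on the combination and 4.83 to 7.16 CPM on vehicle. Mouse 18 held the highest of these sums, and the rest of its group had 1.27 to 3.09 CPM. B cell markers summed to 1.05 to 3.78 CPM against 4.14 to 14.1 CPM. Of these, 4 of 5 measured members (of 8 listed) were lower, among them Cd79a of the B cell receptor (-2.19 ± 0.51, adjusted p = 0.0047). Cd79a was not called against vehicle mice 10 to 12 alone (-1.87, adjusted p = 0.074) or with CORT+ENZA mice 4 to 6 only (-1.59, adjusted p = 0.062). On corticosterone alone 5 of the same 5 were lower, beside 9.29% of all genes. In whole tissue, fewer cells of a type and less RNA per cell cannot be told apart, and the part of these shifts in the results below was not tested.

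Cyp2b10, the classical target of CAR in mouse liver (chromosome 7, 25897620 to 25926624, plus strand, GRCm38), was the gene with the largest rise among those named. It measured 0.458 to 1.49 CPM (median 0.718) in vehicle mice, 24.3 to 96.8 CPM (median 55.5) on corticosterone and 437 to 1065 CPM (median 903) on the combination. The 3 groups did not overlap, and the combination stood 10.04 ± 0.41 above vehicle (adjusted p = 1.3e-11) and 3.86 ± 0.29 above corticosterone (adjusted p = 1.3e-07). In raw counts, 79 reads in 6 vehicle libraries faced 93445 in 6 treated ones, and the ratio of 1064 has a counting interval of 854 to 1344, which covers counting error only.

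Cyp3a11, the main PXR target and homologue of human CYP3A4 (chromosome 5, 145854426 to 145879964, minus strand), measured 581 to 1064 CPM (median 769) on vehicle, 723 to 2877 CPM (median 1276) on corticosterone and 12043 to 16753 CPM (median 13235) on the combination. Every mouse on the combination lay above every other chronic mouse, with a rise of 4.17 ± 0.28 over vehicle (adjusted p = 7.5e-09) and 3.24 ± 0.27 over corticosterone (adjusted p = 2.7e-07). Cyp2c55 (chromosome 19, 39007019 to 39042693, plus strand), a P450 induced through CAR and PXR, went opposite ways with the treatments. It measured 2.28 to 4.41 CPM (median 3.36) on vehicle, 0.779 to 2.22 CPM (median 0.975) on corticosterone, where it fell (-1.34 ± 0.31, adjusted p = 0.0058), and 40.7 to 87.5 CPM (median 56.7) on the combination. Cyp2c29, a CAR-inducible P450 already abundant on vehicle, rose from 708 to 977 CPM (median 883) to 4988 to 5825 CPM (median 5506), a change of 2.65 ± 0.12 (adjusted p = 1.3e-11) with no overlap.

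The bases before the start of Cyp2b10 and Cyp3a11 are shown because both are classical target genes of CAR and PXR. CAR and PXR bind, with RXR, paired short sites spaced by a few bases, and the direct repeat AGNTCANNNNAGNTCA was searched on both strands of the 250 bases before each start in RefSeq (GRCm38.p6), of which the part before the GENCODE start is printed. It was found in 0.103% of 32851 promoters and in 1 of 30 listed CAR and PXR genes with an entry, Cyp3a11, where it begins 172 bases before the RefSeq start, which is 62 bases before the end of the printed stretch (capitals). Cyp2b10, at chr7:25897408-25897619 on the plus strand, has no match in this window, and Cyp3a11 is at chr5:145879965-145880104 on the minus strand.
Cyp2b10: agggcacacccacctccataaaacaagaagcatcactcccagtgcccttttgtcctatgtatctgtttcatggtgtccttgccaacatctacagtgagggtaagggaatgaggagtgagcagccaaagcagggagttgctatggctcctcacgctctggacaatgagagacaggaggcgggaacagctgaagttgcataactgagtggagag
Cyp3a11: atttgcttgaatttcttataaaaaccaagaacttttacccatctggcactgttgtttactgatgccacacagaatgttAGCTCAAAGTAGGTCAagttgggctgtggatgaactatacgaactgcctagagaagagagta

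**Figure D2:**
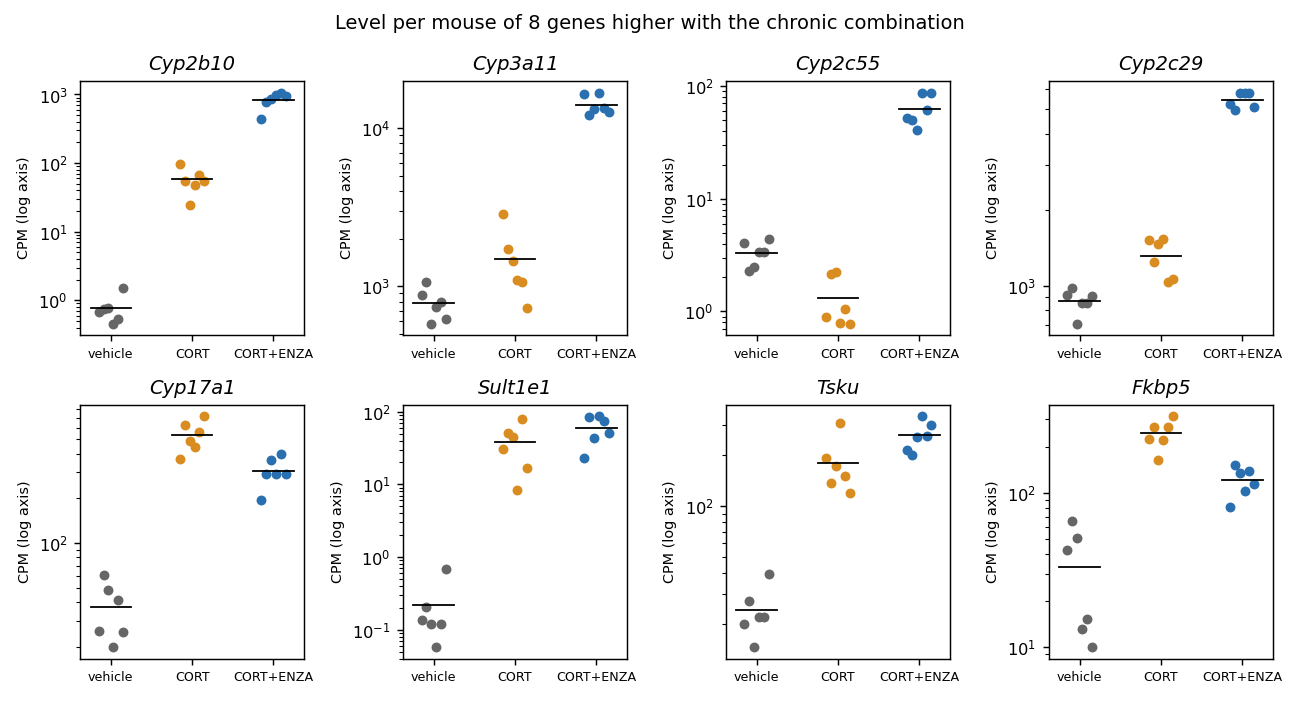
Level of 8 genes in each chronic mouse (CPM, log axis), by group, with the group mean as a line. For Cyp2b10, Cyp3a11, Cyp2c55 and Cyp2c29 every CORT+ENZA mouse is above all other mice, while Cyp17a1, Sult1e1, Tsku and Fkbp5 are above vehicle in the CORT and the CORT+ENZA mice.

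Of the 32 CAR and PXR genes and targets listed, 29 were measured, and 27 were higher and 0 lower, with a median change of 1.88 beside -0.01 over all genes tested. Against corticosterone the combination was higher at 21 and lower at 0 of them (median 1.53; 6.99% of all genes were higher), and corticosterone alone was above vehicle at 10 and below at 2 (median 0.47; 9.04% of all genes were higher). These comparisons share mice, so their counts stand side by side only. The count against vehicle was 25 with vehicle mice 10 to 12 alone, 28 with mice 13 to 15 alone and 28 without mice 18 and 11.

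The rise covered several steps of drug handling. Por, the reductase that feeds electrons to microsomal P450s, went from 161 ± 118 to 740.1 ± 184 CPM (2.20 ± 0.43, adjusted p = 0.0015). Alas1, the first enzyme of haem synthesis, went from 163 ± 103 to 859 ± 233 CPM (2.40 ± 0.37, adjusted p = 1.9e-04). Both were picked from the list after their values were seen. The carboxylesterase Ces2a (223 ± 24.2 to 937 ± 157 CPM, 2.07 ± 0.12), the glutathione transferases Gstm3 (4.56 ± 0.38) and Gsta1 (4.57 ± 0.72) and the P450 Cyp3a59 (4.95 ± 0.24), which is outside the list, also rose. These 4 are uncertain, since 22.2%, 28.8%, 89.7% and 28.0% of the 50-base stretches of their transcripts occur in another gene, and Gsta1 reached 21.2 CPM in mouse 18 against a group median of 2.72 CPM. Of the receptors themselves, the PXR gene Nr1i2 rose (0.85 ± 0.17, adjusted p = 0.002). The CAR gene Nr1i3 measured 147 ± 74.4 CPM on vehicle and 225 ± 65.0 CPM on the combination, which did not pass the test in all 12 mice (0.61 ± 0.26, adjusted p = 0.11) or against vehicle mice 10 to 12 alone (0.23, adjusted p = 0.65). It passed without mice 18 and 11 (1.04, adjusted p = 1.2e-04) and against vehicle mice 13 to 15 alone (1.13, adjusted p = 0.0022).

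Targets of the oxidative stress factor NRF2 were mixed. Of 13 measured, 6 were higher and 3 lower (median 0.45), beside 10.3% and 8.29% of all genes. The epoxide hydrolase Ephx1 (1.77 ± 0.21, adjusted p = 9.9e-06), the quinone reductase Nqo1 (1.31 ± 0.17, adjusted p = 2.3e-05) and the sulfiredoxin Srxn1 (0.94 ± 0.18, adjusted p = 9.9e-04) led the rises, and the first of these is also inducible through CAR. The lower genes include the NADPH sources G6pdx and Me1 and the glutathione synthesis enzyme Gclc. The count of lower members was 0 against vehicle mice 10 to 12 alone, 0 with CORT+ENZA mice 16 to 18 only and 0 with runs of mouse numbers as a random effect in limma-voom, and 3 against vehicle mice 13 to 15.

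Several of the largest changes were shared with corticosterone alone in their direction. Sult1e1, the oestrogen sulfotransferase, measured 0.0573 to 0.691 CPM (median 0.128) on vehicle, 8.42 to 79.7 CPM (median 37.6) on corticosterone and 23.1 to 86.5 CPM (median 62.7) on the combination, a rise of 7.98 ± 0.71 (adjusted p = 9.6e-07). All treated mice were above all vehicle mice. The vehicle level rests on 1 to 13 reads a library, and the ratio of summed counts was 263 with a counting interval of 175 to 415. Tsku, which encodes the secreted liver protein tsukushi, measured 14.6 to 39.7 CPM (median 22.1), 119.5 to 309.6 CPM (median 162) and 201 to 338 CPM (median 257) in the same order (3.42 ± 0.25 over vehicle, adjusted p = 4.5e-08). Myom3, a myomesin gene, rose from 0.426 ± 0.316 to 20.3 ± 5.16 CPM and was 0.84 ± 0.23 above corticosterone (adjusted p = 0.026). Akr1b7, an aldo-keto reductase, rose from 0.314 ± 0.173 through 2.21 ± 0.762 on corticosterone to 12.9 ± 5.48 CPM (5.34 ± 0.41 over vehicle, adjusted p = 4.6e-08).

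Female-biased liver genes were higher at 8 of 15 measured members (of 26 listed) and lower at 0, with a median of 1.39. Over all genes 10.3% were higher and 8.29% lower. Against vehicle mice 10 to 12 alone 7 members were higher, and against mice 13 to 15 alone 8. On corticosterone alone the counts were 10 and 1 (median 2.51), beside 9.04% and 9.29% of all genes. The combination was below corticosterone at 4 members and above at 2, beside 4.86% and 6.99% of all genes. The steroid 17-alpha-hydroxylase Cyp17a1, in the adult liver a female-biased gene, measured 19.9 to 60.6 CPM (median 33.5) on vehicle, 366 to 715 CPM (median 527) on corticosterone and 194 to 398 CPM (median 292) on the combination. It stood between the other groups, 3.05 ± 0.26 above vehicle (adjusted p = 2.6e-07) and -0.81 ± 0.24 relative to corticosterone (adjusted p = 0.036). Cyp2c40 differed further from corticosterone, with 3.29 ± 1.69, 136 ± 64.7 and 10.7 ± 8.08 CPM in the 3 groups (-3.66 ± 0.46 against corticosterone, adjusted p = 6.5e-05); it was picked after its values were seen and is uncertain, with 72.1% of its stretches shared. Trim24, a transcriptional cofactor, had 11.6 ± 2.03, 30.6 ± 8.84 and 30.3 ± 5.71 CPM (1.39 ± 0.17 against vehicle, adjusted p = 1.2e-05).

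Male-biased genes moved both ways: 7 of 26 were lower and 5 higher (median -0.61), beside 8.29% and 10.3% of all genes. On corticosterone alone 11 were lower and 2 higher, beside 9.29% and 9.04% of all genes. Against vehicle mice 10 to 12 alone the combination had 6 lower and 2 higher, and against mice 13 to 15 alone 5 and 5. Cyp2u1, a P450 of fatty acid hydroxylation, fell from 27.6 to 49.3 CPM (median 42.2) to 6.15 to 12.8 CPM (median 9.32), with no overlap (-2.13 ± 0.21, adjusted p = 1.5e-06), and lay -0.86 ± 0.21 relative to corticosterone (adjusted p = 0.012). Cyp4a12a and Cyp4a12b, male-specific fatty acid hydroxylases, rose with the combination (1.21 ± 0.22 and 2.34 ± 0.24) and are uncertain, with 48.9% and 49.4% of their stretches shared. The protease inhibitor Serpina1e fell (-2.86 ± 0.55, adjusted p = 0.0015; 35.6% shared). Of growth hormone and IGF genes, 2 of 16 were lower, beside 8.29% of all genes, and 0 higher. The lower ones were the receptor Ghr (-0.66 ± 0.12, adjusted p = 5.8e-04) and its signal transducer Stat5b (-0.37 ± 0.10, adjusted p = 0.017; 11.8% shared). Stat5b was not called against vehicle mice 10 to 12 alone (-0.22, adjusted p = 0.26), with either run of CORT+ENZA mice alone (-0.32, adjusted p = 0.11 and -0.41, adjusted p = 0.072) or with the random effect (-0.36, adjusted p = 0.094). The growth hormone and IGF list had 2 lower and 0 higher against vehicle mice 10 to 12, and 2 and 3 against mice 13 to 15.

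Genes that differed from vehicle and whose 95% interval against corticosterone lay within 0.5 on the log2 scale included the flavin monooxygenase Fmo1 (1.08 ± 0.11 over vehicle; -0.45 to 0.01 against corticosterone) and the lipopolysaccharide-binding protein Lbp (1.14 ± 0.14; -0.40 to 0.17). The glycine transporter Slc6a9 (1.14 ± 0.14; -0.19 to 0.37) and the glutaredoxin Glrx (1.12 ± 0.10; -0.05 to 0.35) rose in the same way. Of the genes that fell, the tight junction gene Cldn1 (-0.88 ± 0.15; -0.34 to 0.31), the translation inhibitor Pdcd4 (-1.03 ± 0.12; -0.49 to 0.01) and the ketone body enzyme Bdh1 (-0.93 ± 0.15; -0.16 to 0.44) met the same limit. Since that limit chose them, their closeness to corticosterone is a description. A further fall from vehicle was in Chrna4, a nicotinic receptor subunit (69.3 ± 70.8, 4.69 ± 3.35 and 3.68 ± 3.04 CPM in the 3 groups; -4.23 ± 0.77, adjusted p = 9.6e-04). Enho, which encodes the peptide adropin, fell as well (14.6 ± 10.1, 2.76 ± 0.672 and 1.57 ± 1.04 CPM; -3.21 ± 0.40, adjusted p = 1.8e-05), as did Cib3, a calcium-binding protein (9.53 ± 4.09, 0.164 ± 0.166 and 1.43 ± 1.20 CPM; -2.74 ± 0.51, adjusted p = 9.4e-04). Car3, a carbonic anhydrase of hepatocytes and adipocytes and one of the largest falls, measured 2294 to 3371 CPM (median 2817) on vehicle, 186 to 1079.7 CPM (median 373) on corticosterone and 205 to 632 CPM (median 378) on the combination (-2.87 ± 0.38 against vehicle, adjusted p = 4.4e-05).

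Cyp8b1, the sterol 12-alpha-hydroxylase that directs bile acid synthesis to cholic acid (chromosome 9, 121914356 to 121916305, minus strand), had the largest fall among the named genes. It measured 185 to 382 CPM (median 324) on vehicle, 28.1 to 242 CPM (median 51.0) on corticosterone and 3.19 to 37.2 CPM (median 8.37) on the combination. The mice on the combination were below all vehicle mice (-4.57 ± 0.69, adjusted p = 1.7e-04) and the difference from corticosterone was -2.98 ± 0.65 (adjusted p = 0.0064), while corticosterone alone did not pass against vehicle (-1.59 ± 0.60, adjusted p = 0.077). Cyp7a1, the rate-limiting enzyme of the classical pathway, measured 19.4 to 75.0 CPM (median 45.5) on vehicle and 78.1 to 120.1 CPM (median 97.2) on the combination, without overlap, and did not pass across all genes (1.10 ± 0.50, adjusted p = 0.14).

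In all, 6 of 19 bile acid genes were higher and 1 lower (median 0.22), beside 10.3% and 8.29% of all genes. Against vehicle mice 10 to 12 alone the counts were 6 and 1, and against mice 13 to 15 alone 8 and 2. Abcb11, the canalicular bile salt export pump, rose from 771 ± 72.4 to 1376 ± 236 CPM (0.84 ± 0.12, adjusted p = 4.3e-05), and Abcb4, which exports phospholipid into bile, from 190.0 ± 55.5 to 341 ± 37.2 CPM (0.84 ± 0.15, adjusted p = 3.9e-04). Cyp27a1 of the alternative pathway (0.66 ± 0.12, adjusted p = 4.8e-04) and the peroxisomal side-chain enzyme Hsd17b4 (0.62 ± 0.10, adjusted p = 2.1e-04) rose as well.

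Other genes separated the combination from vehicle and from corticosterone in the same direction. Fabp5, the epidermal fatty acid-binding protein, measured 85.7 to 348 CPM (median 180.2), 5.45 to 162 CPM (median 61.0) and 5.83 to 24.5 CPM (median 13.8) on vehicle, corticosterone and the combination (-3.77 ± 0.61 against vehicle, adjusted p = 3.1e-04; -2.35 ± 0.58 against corticosterone, adjusted p = 0.014). The mice on the combination lay below all vehicle mice and overlapped with the corticosterone mice. Every mouse on the combination was below every other chronic mouse for Ppp1r3c, a glycogen-targeting subunit of protein phosphatase, at 18.1 to 31 CPM (median 28.2) against 72.1 to 151 CPM (median 97.3) on vehicle (-1.93 ± 0.23, adjusted p = 1.4e-05) and 63.0 to 178 CPM (median 80.01) on corticosterone. Angptl8, an insulin-responsive inhibitor of lipoprotein lipase, fell to 30.5 ± 10.5 CPM from 87.0 ± 42.5 on vehicle and 149 ± 124 on corticosterone (-1.51 ± 0.42 against vehicle, adjusted p = 0.017). That fall was not called against vehicle mice 10 to 12 alone (-0.97, adjusted p = 0.21), with CORT+ENZA mice 4 to 6 only (-1.82, adjusted p = 0.062) or 16 to 18 only (-1.25, adjusted p = 0.17), or with the random effect (-1.46, adjusted p = 0.054). Hamp2, a hepcidin gene, fell from 191 ± 85.6 to 12.3 ± 8.47 CPM (-3.94 ± 0.50, adjusted p = 2.8e-05) and is uncertain at 15.5% shared. Among the rises, Apol9a, an apolipoprotein L gene induced by interferon, had 39.4 ± 8.08, 10.3 ± 4.22 and 89.6 ± 24.4 CPM, below vehicle on corticosterone and above it on the combination (1.19 ± 0.23, adjusted p = 0.0015).

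**Figure D3:**
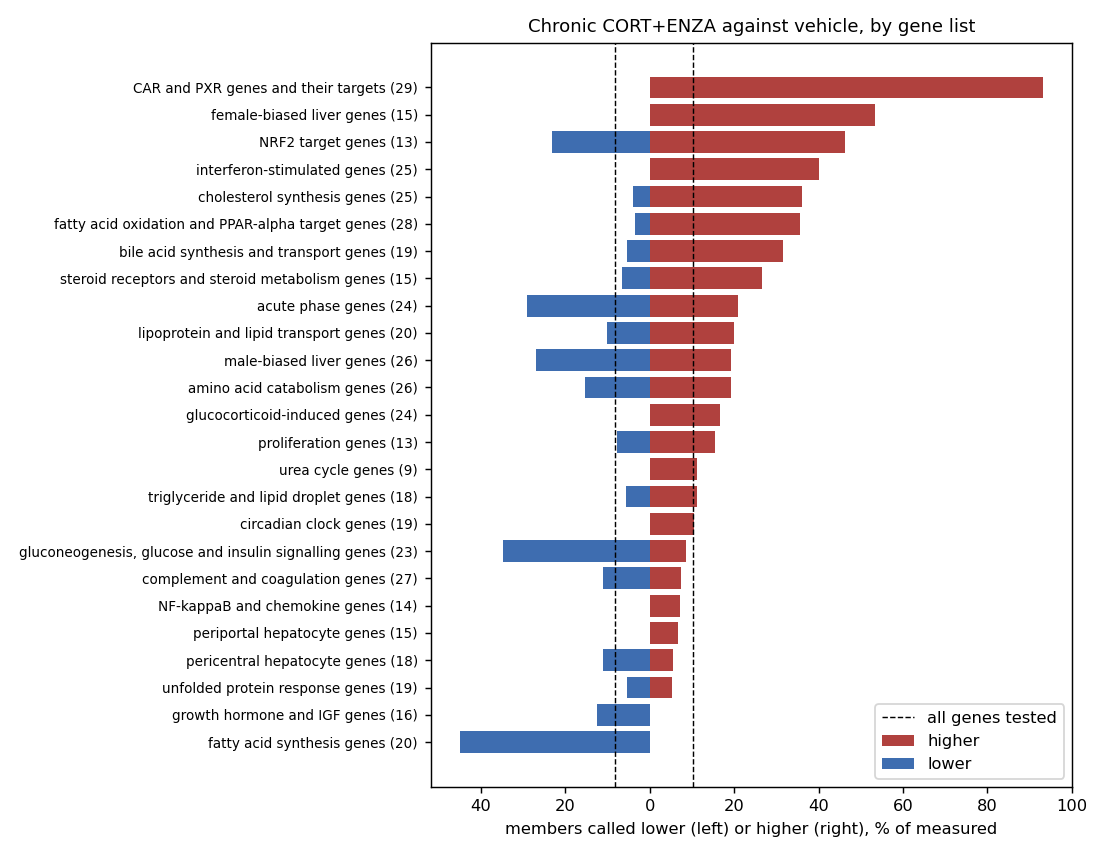
Share of the measured members of each gene list (number in brackets) that were higher or lower on chronic CORT+ENZA than on vehicle, with dashed lines at the share of all genes tested (10.3% higher, 8.29% lower). CAR and PXR genes have the largest share higher (27 of 29) and fatty acid synthesis genes the largest share lower (9 of 20).

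Interferon-stimulated genes, which encode antiviral effectors, were higher than vehicle at 10 of 25 members and lower at 0 (median 0.59). Over all genes 10.3% were higher and 8.29% lower. On corticosterone alone 19 of 25 were lower and 0 higher (median -1.16), beside 9.29% and 9.04% of all genes. The combination was above corticosterone at 24 of 25 (median 1.63), beside 6.99% of all genes. Ifit1, an antiviral RNA-binding protein, measured 6.36 to 12.3 CPM (median 8.59) on vehicle, 1.28 to 6.72 CPM (median 2.24) on corticosterone and 19.5 to 41.7 CPM (median 20.4) on the combination (1.43 ± 0.30 against vehicle, adjusted p = 0.0025). The mice on the combination were all above the vehicle mice, and mouse 18 held the highest value, 41.7 CPM.

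Irf7, the transcription factor that amplifies the interferon response, measured 30.3 to 49.0 CPM (median 39.0), 9.76 to 20.6 CPM (median 11.8) and 62.0 to 183 CPM (median 84.1) in the same order. It rose (1.25 ± 0.24 against vehicle, adjusted p = 0.0013; 2.83 ± 0.26 against corticosterone, adjusted p = 1.4e-06). The RNA sensors Ddx58 (RIG-I, 0.66 ± 0.10, adjusted p = 9.8e-05) and Ifih1 (MDA5, 0.59 ± 0.11, adjusted p = 5.6e-04) rose without overlap. Usp18, a brake on interferon signalling, had 11.3 ± 1.99, 2.44 ± 0.954 and 20.2 ± 8.42 CPM (0.83 ± 0.23 against vehicle, adjusted p = 0.017). The rise of Usp18 was not called against vehicle mice 10 to 12 alone (0.78, adjusted p = 0.13) or 13 to 15 alone (0.90, adjusted p = 0.052). Against vehicle mice 10 to 12 alone 6 members were higher, against mice 13 to 15 alone 8, and without mice 18 and 11 10, with a median of 0.19.

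The bases before Ifit1 and Rsad2, an antiviral enzyme that also rose (1.26 ± 0.31, adjusted p = 0.0085), are shown because interferon-activated factors bind a known element, searched as GAAANNGAAA on both strands. Rsad2 was not called against vehicle mice 10 to 12 alone (1.05, adjusted p = 0.12) or with CORT+ENZA mice 4 to 6 only (0.90, adjusted p = 0.065). Ifit1, Rsad2 and Usp18 were picked from the list after their values were seen. The letters occur in 2.98% of all 32851 promoter windows, in 11 of 19 listed interferon genes with an entry (57.9%), and in 4 of the 7 with an entry that were higher. In Ifit1 (chr19:34640639-34640870, plus strand) they begin 86 and 67 bases before the end of the printed stretch, in capitals as read on the gene's strand. In Rsad2 (chr12:26456453-26456702, minus strand) they begin 120 bases before that end. Known elements for sterol and glucocorticoid control, TCACNCCAC and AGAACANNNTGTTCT, searched in the same way, were in 1 of 17 listed cholesterol genes with an entry (Hmgcs1) and 1 of 23 glucocorticoid-induced genes (Sgk1), and in 1.05% and 0.00913% of all windows.
Ifit1: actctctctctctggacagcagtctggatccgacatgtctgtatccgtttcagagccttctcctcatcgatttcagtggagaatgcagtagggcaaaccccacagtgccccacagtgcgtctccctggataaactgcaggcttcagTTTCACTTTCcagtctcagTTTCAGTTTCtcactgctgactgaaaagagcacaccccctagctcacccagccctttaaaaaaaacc
Rsad2: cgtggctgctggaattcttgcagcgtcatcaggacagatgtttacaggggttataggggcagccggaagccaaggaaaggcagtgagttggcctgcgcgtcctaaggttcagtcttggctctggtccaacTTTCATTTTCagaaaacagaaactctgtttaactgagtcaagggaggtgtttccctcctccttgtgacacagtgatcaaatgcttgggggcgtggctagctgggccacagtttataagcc

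Cholesterol synthesis genes had 9 of 25 members higher and 1 lower than vehicle (median 0.54), beside 10.3% and 8.29% of all genes. On corticosterone alone the counts were 1 higher and 11 lower (median -0.71), beside 9.04% and 9.29% of all genes. The combination was above corticosterone at 19 (median 1.20), beside 6.99% of all genes. Sqle, the squalene epoxidase, measured 35.7 to 123 CPM (median 83.3) on vehicle, 15.0 to 32.6 CPM (median 27.3) on corticosterone and 55.1 to 239 CPM (median 170.5) on the combination. The corticosterone mice were lowest. The combination stood 0.96 ± 0.32 above vehicle (adjusted p = 0.046) and 2.61 ± 0.34 above corticosterone (adjusted p = 7.5e-05). Hmgcs1, the HMG-CoA synthase, did not pass against vehicle (0.65 ± 0.33, adjusted p = 0.19) and was 2.00 ± 0.34 above corticosterone (adjusted p = 9.5e-04). The desaturase Sc5d fell (-0.72 ± 0.17, adjusted p = 0.0042), though not against vehicle mice 10 to 12 alone (-0.37, adjusted p = 0.17).

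The cholesterol count against vehicle depended on the mice used: 10 members were higher against vehicle mice 10 to 12, 2 against mice 13 to 15, 14 without mice 18 and 11 and 1 with runs of mouse numbers as a random effect in limma-voom. Over all genes 852, 1590, 1696 and 732 were higher in these fits. Sqle, picked after its values were seen, showed 1.46 against mice 10 to 12 (adjusted p = 0.028) and 0.60 against mice 13 to 15 (adjusted p = 0.24). Its rise over vehicle was not called in 15 of 24 alternatives. These include CORT+ENZA mice 4 to 6 only (0.95, adjusted p = 0.071) and 16 to 18 only (0.98, adjusted p = 0.16).

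Of 20 fatty acid synthesis genes 9 were lower and 0 higher (median -0.90), beside 8.29% and 10.3% of all genes. On corticosterone alone 7 were lower, beside 9.29% of all genes. Scd1, the stearoyl-CoA desaturase, measured 16282 to 42879 CPM (median 24889) on vehicle, 11112 to 33513 CPM (median 21814) on corticosterone and 4935 to 12993 CPM (median 9915) on the combination. All mice on the combination were below all vehicle mice (-1.48 ± 0.28, adjusted p = 0.0012), and the difference from corticosterone was -1.24 ± 0.28 (adjusted p = 0.0076). The elongase Elovl5 fell (-1.42 ± 0.21, adjusted p = 8.4e-05), and so did Acly, the ATP citrate lyase (-1.77 ± 0.42, adjusted p = 0.0072), and the lipase Pnpla3 (-2.86 ± 0.63, adjusted p = 0.004).

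Vehicle mice 10 to 12 had Acly at 231 to 638 CPM and mice 13 to 15 at 1133 to 2558 CPM, beside 243 to 462 CPM (median 295) on the combination. The falls of Acly and Pnpla3 were not called against mice 10 to 12 alone (-0.50, adjusted p = 0.33; -1.14, adjusted p = 0.23). The list count was 3 lower there, 13 against mice 13 to 15 and 2 with runs of numbers as a random effect. Over all genes 680, 1164 and 453 were lower in these fits. Scd1 fell against either run alone (-1.0, adjusted p = 0.04; -1.82, adjusted p = 5.1e-04).

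**Figure D4:**
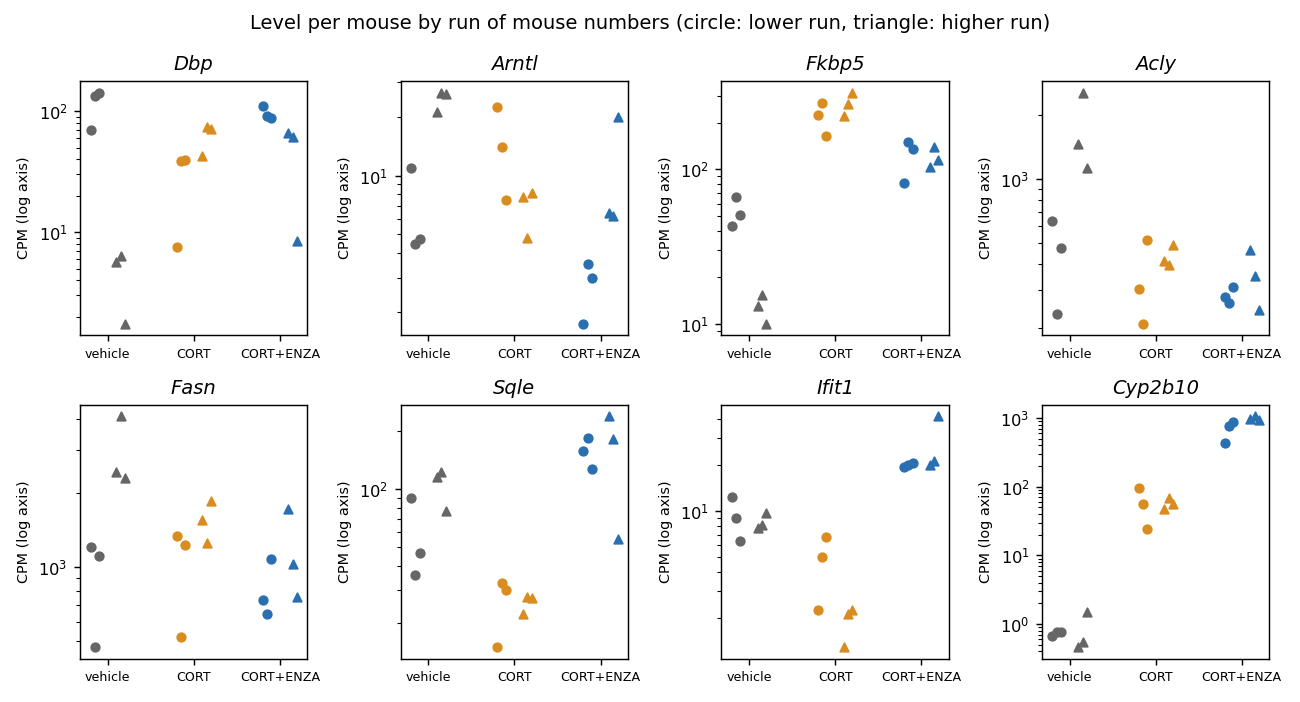
Level of 8 genes in each chronic mouse (CPM, log axis), with circles for the lower and triangles for the higher run of mouse numbers in each group (vehicle 10 to 12 and 13 to 15, CORT 1 to 3 and 25 to 27, CORT+ENZA 4 to 6 and 16 to 18). Dbp, Arntl, Fkbp5, Acly and Fasn separate the runs of vehicle mice, while Cyp2b10 and Ifit1 do not. Dbp, Arntl and Cyp2b10 separate the runs of CORT+ENZA mice.

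Fatty acid oxidation and PPAR-alpha target genes were higher at 10 of 28 and lower at 1 (median 0.19). Over all genes 10.3% were higher and 8.29% lower. Cyp4a14, an omega-hydroxylase and PPAR-alpha target, measured 13.2 to 192 CPM (median 23.5) on vehicle, 432 to 2619 CPM (median 682) on corticosterone and 248 to 1436 CPM (median 647) on the combination (3.57 ± 0.75, adjusted p = 0.003), and vehicle mouse 11 held the highest vehicle value. The fatty acid transporter Cd36 rose from 27.7 to 58.3 CPM (median 39.8) to 86.7 to 176 CPM (median 125), with no overlap (1.62 ± 0.24, adjusted p = 1.1e-04), and was 1.04 ± 0.23 above corticosterone (adjusted p = 0.0075). The list count was 3 higher against vehicle mice 10 to 12 and 15 against mice 13 to 15, beside 852 and 1590 of all genes.

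Of lipoprotein genes 4 of 20 were higher and 2 lower, beside 10.3% and 8.29% of all genes. Against vehicle mice 10 to 12 alone the counts were 2 and 1, and against mice 13 to 15 alone 6 and 3. Apoa4, an apolipoprotein of fat transport, rose from 152 to 190.0 CPM (median 167) to 486 to 3576 CPM (median 800.1) and to 1168 to 1869.9 CPM (median 1533) on corticosterone, every treated mouse above the vehicle mice (2.91 ± 0.40 on the combination, adjusted p = 6.2e-05). Mttp, which loads lipid onto apolipoprotein B, rose by less (0.38 ± 0.08, adjusted p = 0.0024). Of triglyceride and lipid droplet genes 2 of 18 were higher and 1 lower, beside 10.3% and 8.29% of all genes. This list had 1 higher and 2 lower against vehicle mice 10 to 12 alone, and 5 and 0 against mice 13 to 15 alone. Dgat2, the last enzyme of triglyceride synthesis, fell by 0.36 (log2, adjusted p = 0.013). It was not called against vehicle mice 13 to 15 alone (-0.21, adjusted p = 0.19) or with CORT+ENZA mice 4 to 6 only (-0.21, adjusted p = 0.2).

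Glucose metabolism and insulin signalling genes were lower at 8 of 23 members and higher at 2 (median -0.34). Over all genes 8.29% were lower and 10.3% higher. On corticosterone alone 1 member was lower and 4 higher, beside 9.29% and 9.04% of all genes. Fbp1, the fructose bisphosphatase of gluconeogenesis, fell from 928 to 1158 CPM (median 998) on vehicle to 598 to 688 CPM (median 617), with no overlap (-0.68 ± 0.08, adjusted p = 4.5e-06). On corticosterone alone it measured 1019 ± 78.7 CPM (0.00 ± 0.08 against vehicle). Pklr, the liver pyruvate kinase of glycolysis, fell too (-1.04 ± 0.25, adjusted p = 0.0059), though not against vehicle mice 10 to 12 alone (-0.48, adjusted p = 0.2). The count was 5 lower against vehicle mice 10 to 12 and 10 against mice 13 to 15, beside 680 and 1164 of all genes.

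Amino acid catabolism genes had 5 of 26 higher and 4 lower (10.3% and 8.29% of all genes), with Cbs, the cystathionine synthase of the transsulfuration pathway, down (-0.77 ± 0.10, adjusted p = 1.8e-05) and Cth, the enzyme after it, up (0.54 ± 0.14, adjusted p = 0.013). Cth was not called against vehicle mice 13 to 15 alone (0.52, adjusted p = 0.061) or with CORT+ENZA mice 16 to 18 only (0.49, adjusted p = 0.1). With CORT+ENZA mice 16 to 18 only the list had 0 higher and 1 lower. Against vehicle mice 10 to 12 alone it had 3 and 2, and against mice 13 to 15 alone 5 and 3. The urea cycle had 1 of 9 higher, the argininosuccinate lyase Asl (0.52 ± 0.10, adjusted p = 0.0012), and 0 lower, beside 10.3% and 8.29% of all genes. It had 1 higher against vehicle mice 10 to 12 alone and 2 against mice 13 to 15 alone.

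Genes that glucocorticoids induce were higher than vehicle at 4 of 24 and lower at 0 (median 0.09). Over all genes 10.3% were higher and 8.29% lower. On corticosterone alone 7 of the list were higher and 0 lower (median 0.49), beside 9.04% and 9.29% of all genes. Fkbp5 measured 10.0 to 66.1 CPM (median 29) on vehicle, 163 to 314 CPM (median 246) on corticosterone and 81.4 to 151 CPM (median 124) on the combination. The combination did not overlap with either group and rose over vehicle (1.88 ± 0.38, adjusted p = 0.0023), while its difference from corticosterone did not pass across all genes (-1.01 ± 0.37, adjusted p = 0.085). Cebpd, a transcription factor of the acute phase, rose with the combination (0.98 ± 0.17, adjusted p = 4.7e-04).

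Tsc22d3 (GILZ), an anti-inflammatory glucocorticoid target, measured 61.5 to 233 CPM (median 132) on vehicle, 156 to 236 CPM (median 200.4) on corticosterone and 74.6 to 138 CPM (median 113) on the combination and did not pass (-0.28 ± 0.26, adjusted p = 0.52). Its sign turned with the run of vehicle mice, 0.57 against mice 10 to 12 (adjusted p = 0.038) and -0.79 against mice 13 to 15 (adjusted p = 0.0018). The clock gene and glucocorticoid target Per1 did not pass either (0.31 ± 0.25, adjusted p = 0.43). Fkbp5 itself measured 42.7 to 66.1 CPM in vehicle mice 10 to 12 and 10.0 to 15.3 CPM in mice 13 to 15, and it rose against either run alone (1.18, adjusted p = 0.0021; 3.25, adjusted p = 4.3e-07). The list had 6 higher and 3 lower against mice 10 to 12, and 7 and 2 against mice 13 to 15.

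The glucocorticoid receptor gene Nr3c1 measured 88.1 ± 10.8 CPM on vehicle and 81.4 ± 5.18 CPM on the combination (-0.11 ± 0.08, adjusted p = 0.37; 95% interval -0.29 to 0.06). Hsd11b1, which regenerates active glucocorticoid, was 0.06 ± 0.12 from vehicle (adjusted p = 0.77; 95% interval -0.19 to 0.31) but -0.56 ± 0.12 relative to corticosterone (adjusted p = 0.0045). The 5-beta-reductase Akr1d1, which clears steroid hormones, rose from 186 ± 16.0 to 439.8 ± 70.1 CPM (1.24 ± 0.11, adjusted p = 2.2e-07). Serpina6, the corticosteroid-binding globulin, fell from 137 to 345 CPM (median 207) to 68.9 to 109.7 CPM (median 90.2) and to 31.7 to 60.9 CPM (median 52.3) on corticosterone (-1.24 ± 0.21 on the combination, adjusted p = 4.6e-04).

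Acute phase genes had 5 of 24 higher and 7 lower, beside 10.3% and 8.29% of all genes. Against vehicle mice 10 to 12 alone the counts were 3 and 6, and against mice 13 to 15 alone 6 and 5. Orm3, an orosomucoid, rose from 1.61 to 2.98 CPM (median 2.19) to 4.77 to 24.5 CPM (median 16.0) with no overlap (2.83 ± 0.33, adjusted p = 8.0e-06) while it measured 0.915 to 3.98 CPM (median 2.31) on corticosterone. The fibrinogen genes Fga (-0.84 ± 0.10, adjusted p = 5.6e-06) and Fgg (-0.84 ± 0.10, adjusted p = 5.3e-06) fell without overlap. Of complement and coagulation genes 2 of 27 were higher and 3 lower, beside 10.3% and 8.29% of all genes. Against vehicle mice 10 to 12 alone these counts were 2 and 4, and against mice 13 to 15 alone 3 and 1. C3, the central complement component, rose from 5588 ± 652 to 9729 ± 737 CPM (0.80 ± 0.09, adjusted p = 6.4e-06), and coagulation factor F9 rose as well (0.53 ± 0.09, adjusted p = 2.1e-04).

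The lists for the circadian clock (2 of 19 higher, 0 lower), NF-kappaB and chemokines (1 of 14 and 0), the unfolded protein response (1 of 19 and 1), proliferation (2 of 13 and 1), pericentral hepatocytes (1 of 18 and 2) and periportal hepatocytes (1 of 15 and 0) had few members called in all 12 mice, beside 10.3% of all genes higher and 8.29% lower. Without mice 18 and 11 the lower members were 4 for NF-kappaB and chemokines, 4 for proliferation, 3 for periportal hepatocytes and 3 for the clock (12.8% of all genes). The higher members were then 4 for pericentral hepatocytes and 3 for the clock (12.9% of all genes). Against vehicle mice 13 to 15 alone the clock list had 8 higher and against mice 10 to 12 alone 0, and the unfolded protein response list had 4 and 0 higher. Of all genes 1590 and 852 were higher in these fits. In the same order the proliferation list had 2 and 0 higher, the pericentral list 3 and 1 and the periportal list 2 and 1. The NF-kappaB and chemokine list had 0 and 0 higher and 0 and 1 lower. Lower members were 2 and 1 for the clock, 1 and 2 for the unfolded protein response and 2 and 3 for pericentral hepatocytes. Over all genes 1164 and 680 were lower. The survivin gene Birc5, of the proliferation list and at 5.81 CPM in mouse 18, passed in all 12 mice (1.47 ± 0.46, adjusted p = 0.03) and not without mice 18 and 11 (0.73, adjusted p = 0.11). Cdkn1a showed 0.31 ± 0.75 in all mice (adjusted p = 0.82) and, without mice 18 and 11, -1.29 (adjusted p = 0.16).

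The same combination in the acute arm, in mice that share no library with these, changed 339 of 13733 genes (2.47%). The effect differed between the arms at 555 of 14138 genes (3.93%) in a test of the difference of effects, 339 above and 216 below the acute effect. Duration and RNA extraction kit cannot be told apart between the arms, and multiply aligned read pairs were 18.6 to 22.7% of the chronic and 9.34 to 12.8% of the acute libraries. CAR and PXR genes were higher at 12 of 29 in the acute arm (1.42% of all genes), with a median of 0.63, and the chronic effect was larger at 17 of 29 (2.4% of all genes).

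Cyp2b10 rose by 3.10 ± 0.60 in the acute arm (adjusted p = 0.0072), and the chronic effect exceeded it by 6.94 ± 0.80 (adjusted p = 6.8e-07). Sult1e1 had too few counts to be tested in the acute arm alone (difference of effects 7.11 ± 1.83, adjusted p = 0.019), and Cyp4a14 showed -0.83 ± 0.34 there (adjusted p = 0.21; difference 4.38 ± 0.79, adjusted p = 6.4e-04). Cyp8b1 showed -1.01 ± 0.26 in the acute arm (adjusted p = 0.039), and the chronic effect stood -3.56 ± 0.67 from it (adjusted p = 8.5e-04). Cdkn1a rose in the acute arm (2.19 ± 0.37, adjusted p = 0.0018), with a difference of effects of -1.90 ± 0.84 (adjusted p = 0.24).

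**Figure D5:**
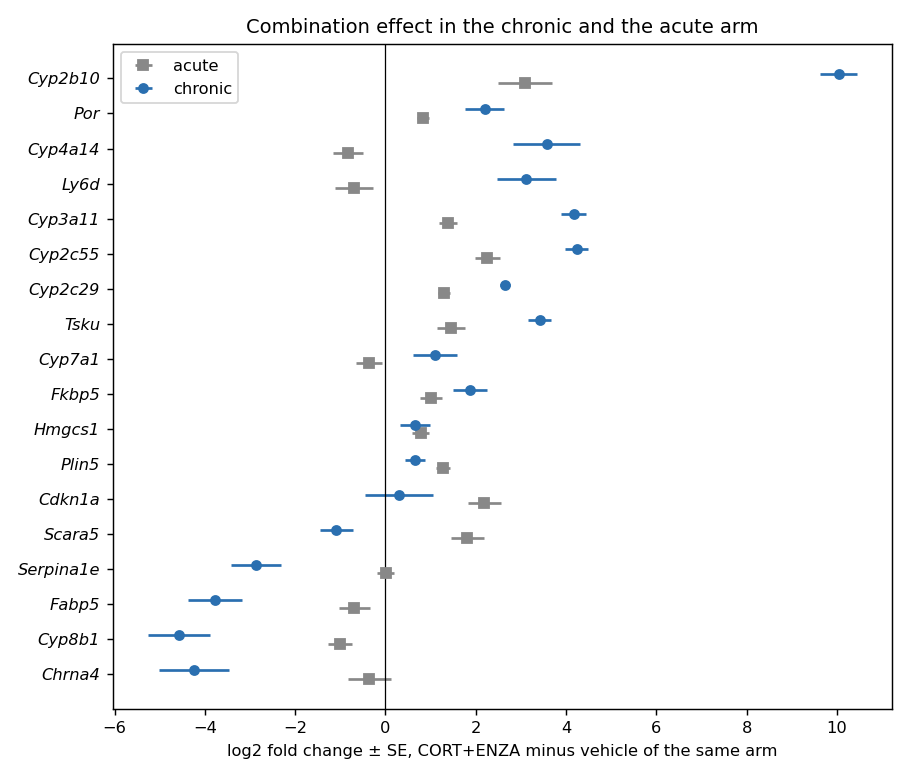
Log2 fold change ± SE of CORT+ENZA against the vehicle group of the same arm for 18 genes, in the chronic (circles) and the acute (squares) arm, with 6 mice per group. Cyp2b10 stands at 10.04 in the chronic and 3.10 in the acute arm, and Cyp8b1 at -4.57 and -1.01.

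Genes called in the acute arm were looked up in the chronic combination. Of the 116 genes higher on acute enzalutamide alone, all were tested and 71 (61.2%) were higher and 0 lower on the chronic combination, beside 10.3% and 8.29% of all genes; these make up 5.27% of the genes higher there. Of 61 tested genes lower on acute enzalutamide, 26 (42.6%) were lower and 1 higher. Of 121 tested genes higher on acute corticosterone alone, 39 (32.2%) were higher and 7 lower. Of 89 tested genes lower on acute corticosterone, 24 (27.0%) were lower and 11 higher. The 4 acute lists, in this order, hold 0.845%, 0.466%, 0.947% and 0.67% of the genes tested in that arm. The other 3 overlaps make up 2.39%, 2.89% and 2.21% of the chronic genes called in the same direction. The acute enzalutamide and acute corticosterone lists share their vehicle mice, so the shares stand side by side and their difference was not tested. On acute enzalutamide alone Cyp2b10 showed 2.7 ± 0.59 (adjusted p = 0.027), Cyp3a11 1.30 ± 0.20 (adjusted p = 8.0e-04) and Cyp2c55 2.55 ± 0.28 (adjusted p = 1.2e-05).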

How the data were processed

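Liver mRNA was measured by stranded 100 bp paired-end sequencing, 1 library a mouse. The authors deposited raw read counts per gene, 1 table for each arm, neither normalized nor pooled; per the submitters' processing notes FastQC, MultiQC, STAR 2.7.3a, HTSeq 0.12.4 and build mm10 were used before deposit. For the annotation release and the strand setting of the counts nothing is given in the sources used, and values of antisense or overlapping genes are therefore uncertain. Of 55573 gene IDs in the deposited table, 55480 were found in GENCODE M21, which gave the coordinates, and 5 closing lines without a gene were dropped.

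The tests ran in edgeR 4.0.16 (R 4.3.3): filterByExpr (minimum count 10, minimum total 15), TMM scaling and a robust quasi-likelihood fit of the 18 chronic libraries, with Benjamini-Hochberg adjustment over all genes tested and calls at an adjusted p under 0.05. The acute arm was fitted in the same way, and the difference between arms in 1 model of 42 libraries. CPM are scaled by TMM. By its label, every library is another mouse. Alternatives were DESeq2 1.42.0, limma-voom 3.58.1 with quality weights, RLE scaling, other filters, fewer libraries and runs of 3 mouse numbers as a random effect.

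In simulated counts of 13006 genes with the library sizes of this comparison, the fit recovered 100% of changes of 1 and 46% of changes of 0.5 on the log2 scale, with 10 false calls of 156. Those counts were drawn independently for each mouse, without mice that stand apart and without a correlation within runs of mouse numbers. In the real counts that correlation was 0.2196 over all genes, so these rates need not hold for the real calls. The members, gene lists and tests were chosen with earlier results of these data known. Named genes were the 12 largest called changes in each direction that also held without mice 18 and 11 and had at least 5 CPM, up to 4 called members of a list by smallest p, the 8 largest in each direction within 0.5 of corticosterone or called beyond it, the largest differences between arms, and fixed genes such as Nr3c1 and Fkbp5. Some of these are not reported here, and others are said to be picked after their values were seen. A gene is called uncertain where at least 10% of the 50-base stretches of its longest transcript occur in another gene.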

Additional observations from a re-analysis of the deposited data

Results flagged for a closer look

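In each group of 6 mice the highest or lowest value of a named gene was called separate when its gap to the nearest other mouse, as a share of the whole range, was above Dixon's 95% critical value for 6 samples. This held for 33 of 204 groups of values over 102 named genes (16.2%). The critical value gives about 1 in 20 only for independent normal values. CPM were not transformed, genes of 1 mouse can move together and some genes were picked after their values were seen. The share therefore does not measure an excess over chance.

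CORT+ENZA mouse 18 was the separate one most often, highest of its group at 17 genes and lowest at 5. Its interferon-stimulated genes stood apart upward, at 41.7 for Ifit1, 183 for Irf7, 46.3 for Rsad2 and 36.3 for Usp18 (CPM). So did genes of the cell cycle and matrix, at 14.1 for Mki67, 5.81 for Birc5, 36.5 for Cdkn1a and 28.8 for Col1a1 (CPM). Genes that fell on the combination and were higher in mouse 18 than in the rest of its group measured 37.2 for Cyp8b1, 93.9 for Cldn1, 9.09 for Egr1, 3.56 for Enho and 2.68 for Raet1d (CPM). The other high values were 3576 for Apoa4, 19.8 for Arntl, 21.2 for Gsta1 and 135 for Srxn1 (CPM). Its low values were 922 for Abcb11, 303 for Akr1d1, 519 for Cyp27a1, 458 for Sult1a1 and 50.8 for Pdcd4 (CPM), of which the first 4 rose on the combination, so the rest of the group lay further from vehicle there. The other CORT+ENZA mice stood apart at Cyp2c40, with 26.0 CPM in mouse 17, and at Cd79a, with 0.686 CPM in mouse 5.

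Vehicle mouse 11 was the highest of its group at 5 genes that were higher on corticosterone or the combination or both, with 297 for Abcb4, 134 for Fmo1, 706 for Hsd11b1, 442 for Hsd17b4 and 90.4 for Lbp (CPM). Vehicle mouse 14 had 80.9 CPM of Gstm3. Vehicle mouse 15 had 1.49 CPM of Cyp2b10 and 0.691 CPM of Sult1e1, both below every treated mouse. Vehicle mouse 10 had 34.9 CPM of Enho.

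The combination effect differed between the chronic and the acute arm, in a test of the difference of effects in 1 edgeR model over both arms, at 9 of the named genes with the largest such differences. As the chronic minus the acute log2 fold change it was 7.11 for Sult1e1, 6.94 for Cyp2b10, 4.38 for Cyp4a14, 4.04 for Gsta1, 3.81 for Ly6d, -3.08 for Fabp5, -3.56 for Cyp8b1, -3.86 for Chrna4 and -4.42 for Egr1. The difference for Gsta1 did not pass without mice 18 and 11 (2.75, adjusted p = 0.084) or without the filter on low counts, that for Ly6d did not with limma-voom quality weights (2.75, adjusted p = 0.11), and that for Egr1 did not in the same fit (-1.13, adjusted p = 0.53). The acute and chronic arms differ in the extraction kit, and its part in these differences was not tested.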

How the results depend on the processing

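Against 2434 called genes (1348 higher and 1086 lower), the combination gave 1532 (852 higher and 680 lower) with vehicle mice 10 to 12 only and 1370 (876 higher and 494 lower) with CORT+ENZA mice 16 to 18 only. It gave 1185 (732 higher and 453 lower) with runs of mouse numbers as a random effect in limma-voom, 3833 (1968 higher and 1865 lower) with limma-voom quality weights and 3382 (1696 higher and 1686 lower) without mice 18 and 11. All 1185 of the random-effect calls were among the 2434. Leaving out 1 mouse at a time gave 1960 to 2943 calls (1138 to 1525 higher, 796 to 1418 lower), the lowest without mouse 17 and the highest without mouse 18. DESeq2 gave 2800, RLE scaling 2457, no filter 1915, a filter at 1 CPM in 6 libraries 2389, only these 2 groups 2142, vehicle mice 13 to 15 only 2754 and CORT+ENZA mice 4 to 6 only 1820. The fits on 1 run of mice were added after the data were seen. The difference between arms, 555 calls (339 and 216), became 1431 (843 and 588) with limma-voom and 953 (586 and 367) without mice 18 and 11, and its calls below the acute effect 125 without a filter. The cause of these shifts was not tested. Mitochondrial genes took 5.79% of the counts on the combination and 5.41% on vehicle, a difference of 0.380 points (n = 6, two-sided exact permutation test, adjusted p = 0.23) that was 0.654 without mice 18 and 11 (n = 5, exact permutation test, adjusted p = 0.02). Of 139 genes named by the rules or after their values were seen and called, 89 were called under every alternative. Several of the rules took only genes called both with and without mice 18 and 11, so this share does not apply to called genes at large. Egr1 changed sign against vehicle mice 13 to 15 only (0.31, adjusted p = 0.64). So did the uncalled Tsc22d3 against mice 10 to 12 only (0.57, adjusted p = 0.038). No paired analysis was possible because the groups share no mouse number. Depth limits the genes near 0 on vehicle, such as Sult1e1, whose fold rests on few reads.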

Other observations

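Several of the called genes fall outside the groups described so far. Rdh16f2, a short-chain dehydrogenase of the retinol dehydrogenase family, measured 127 to 164 CPM (median 147) on vehicle, 122 to 173 CPM (median 139) on corticosterone and 37.7 to 55.1 CPM (median 43.3) on the combination. The mice on the combination were below all others (-1.70 ± 0.10 against vehicle, adjusted p = 8.2e-10; -1.66 ± 0.10 against corticosterone, adjusted p = 2.2e-09). Raet1d, a ligand of the NKG2D receptor, fell from 4.87 to 11.5 CPM (median 6.53) to 0.552 to 2.68 CPM (median 0.937) with no overlap (-2.78 ± 0.39, adjusted p = 5.4e-05). Both genes are uncertain, with 10.0% and 56.4% of their stretches shared. Ly6d, which encodes a membrane protein of the Ly6 family, rose from 0.542 to 1.43 CPM (median 0.759) to 0.716 to 19.2 CPM (median 5.21), with overlap, and measured 0.122 to 0.424 CPM (median 0.292) on corticosterone (3.12 ± 0.65 against vehicle, adjusted p = 0.0027). It passed with mice 16 to 18 alone on the combination (3.97, adjusted p = 3.7e-07) and not with mice 4 to 6 alone (0.83, adjusted p = 0.2).

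Enzymes that act on steroids and phenols were also among the rises. Srd5a1, the steroid 5-alpha-reductase that makes dihydrotestosterone, rose from 76.2 to 131 CPM (median 89.4) on vehicle to 125 to 238 CPM (median 201) on the combination (1.02 ± 0.15, adjusted p = 7.9e-05) and measured 117 to 179 CPM (median 161) on corticosterone. The phenol sulfotransferase Sult1a1 rose from 304 ± 56.6 to 605 ± 74.8 CPM (0.99 ± 0.13, adjusted p = 2.4e-05). The taurine and GABA transporter Slc6a13 rose from 170.1 ± 12.6 to 342 ± 29.4 CPM (1.01 ± 0.12, adjusted p = 4.7e-06). Hsp90aa1, the inducible cytosolic HSP90 chaperone to which unbound steroid receptors are held, measured 136 ± 29.7, 147 ± 34.9 and 243 ± 44.7 CPM in the 3 groups (0.84 ± 0.16 against vehicle, adjusted p = 0.0011; 0.72 ± 0.16 against corticosterone, adjusted p = 0.0063). Srd5a1 and Hsp90aa1 are uncertain, with 16.5% and 58.5% shared.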
